A study of Homo sapiens with 28 samples.

Results

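The comparison described here set A549 cells of a high reporter gate against A549 cells of a low reporter gate, averaged within 2 treatments. It used 10 of the 28 libraries of the series, 5 of the high and 5 of the low gate, chosen by their labels and not by any measured value. A549 is an established human lung adenocarcinoma line, and the cells carried MGT#1-mVenus, a synthetic reporter for a mesenchymal state that drives the fluorescent protein mVenus. Before sorting, cells were exposed for 11 days to GSK126 at 5 µM or to TGF-β1 at 5 ng/ml, and the gates were set on mVenus fluorescence. The low gate had 3 libraries under GSK126 (letters A, B and C) and 2 under TGF-β1 (A and C), and the high gate had 2 under GSK126 (A and B) and 3 under TGF-β1 (A, B and C). All 10 libraries therefore came from treated cells, and 3 libraries of unsorted naive A549 cells appear below only as a reference level. The labels do not say whether a letter is a separate culture, so the p-values measure the spread between these libraries, which may be technical. Whether the reporter line is 1 clone is not given in the sources used here.

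In epithelial-mesenchymal transition (EMT), epithelial cells lose adhesion molecules such as E-cadherin and gain motility, matrix production and proteases. TGF-β is a classical inducer: its receptors activate SMAD proteins, which move to the nucleus and change transcription. GSK126 inhibits EZH2, the enzyme of Polycomb repressive complex 2 that places the repressive histone mark H3K27me3.

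LCE3E and LCE3D had the 2 highest fold changes among the genes called higher in the high gate when 1 library was left out. They are neighbours on chromosome 1 that encode small proteins of the cornified envelope of skin. Their sequences before the transcription start are shown because both genes were counted almost only under TGF-β1 and differed between the gates together. The stretches are chr1:152580517-152580766 for LCE3D and chr1:152566781-152567030 for LCE3E, both minus strand, 250 bases before the start, from RefSeq on build GRCh38.p14. Capitals mark runs of at least 10 bases that are identical in both when LCE3E is shifted by 1 base.
LCE3D: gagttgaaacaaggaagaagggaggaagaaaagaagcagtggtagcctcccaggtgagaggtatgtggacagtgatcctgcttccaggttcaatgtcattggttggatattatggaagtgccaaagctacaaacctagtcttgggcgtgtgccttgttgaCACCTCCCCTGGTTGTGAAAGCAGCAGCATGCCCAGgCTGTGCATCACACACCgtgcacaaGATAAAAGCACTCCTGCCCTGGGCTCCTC
LCE3E: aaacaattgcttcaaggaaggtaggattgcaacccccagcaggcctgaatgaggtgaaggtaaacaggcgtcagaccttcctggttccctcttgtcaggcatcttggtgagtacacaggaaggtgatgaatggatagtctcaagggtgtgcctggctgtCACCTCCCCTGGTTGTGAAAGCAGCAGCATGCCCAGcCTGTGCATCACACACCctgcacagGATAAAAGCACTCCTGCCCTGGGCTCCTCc
The last 90 bases before the LCE3D start matched LCE3E at 87 positions (96.7%), against 56 of the 159 bases before them (35.2%). The longest shared run, of 36 bases, occurred in no other of the 35116 promoter windows of the same length. Neither window held TGANTCA (the AP-1 motif, 6.57% of all windows), GGAATG (TEAD, 11.9%) or CAGACA (a SMAD-type element, 13.6%) on either strand, which describes only these letters in these windows.

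Total counts ran from 2013449 to 9550143 per library. The line markers KRT8 (1339 to 3707 CPM, counts scaled to the library total), ALDH1A1 (828.4 to 1579 CPM) and AKR1C3 (325.0 to 1154 CPM) were present in all 10 libraries. Markers that fell to lower levels included EPCAM (3.256 to 10.31 CPM), CDH1 (0.3329 to 11.31 CPM) and KRT19 (11.62 to 639.9 CPM). KRT8 and AKR1C3 do not set A549 apart from H1944, the other line of the series, where they had at least 1073 and 273.2 CPM. CDKN2A and CDKN2B, which A549 lacks, had 0 counts in all 10. Their lowest level in H1944 was also 0 CPM, so these zeros may not set A549 apart. MTAP, listed with them as deleted in A549, was nonetheless counted, at 6.558 to 24.63 CPM. One library stood apart. As a measure of background reads, 381 olfactory receptor genes, which lung cells do not use, were summed. The sum was 95.96, 79.96 and 87.22 CPM in the low-GSK126 libraries A, B and C, and 103.8 and 124.8 CPM in the low-TGF-β1 libraries A and C. It was 43.9 and 6.273 CPM in the high-GSK126 libraries A and B, and 6.658, 313.2 and 34.35 CPM in the high-TGF-β1 libraries A, B and C. High-TGF-β1 library B thus held more of this signal than any other sorted A549 library, while the 4 remaining high-gate libraries all lay below the 5 low-gate libraries. Outside library B, gate and background therefore cannot be told apart, and results are given with all 10 libraries and without library B.

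The gate label was checked on the reporter transcript. mVenus was at 716, 883.1 and 1080 CPM in the low-GSK126 libraries A, B and C and at 1235 and 1926 CPM in the high-GSK126 libraries A and B. Under TGF-β1 it was at 1135 and 997 CPM in the low libraries A and C and at 3121, 1847 and 2460 CPM in the high libraries A, B and C. The gates did not overlap within a treatment. The mean difference within treatments was 1.00 on the log2 scale (two-sided exact permutation of gate labels within treatments, p = 0.01, the smallest that 100 arrangements allow). With trimmed-mean normalization factors it was 1.08 (same permutation test, p = 0.02). Naive cells had 465.5, 469.7 and 499.9 CPM. Since cells were sorted on mVenus, this is a check of the labels and mVenus is left out of all gene counts below.

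**Figure D1:**
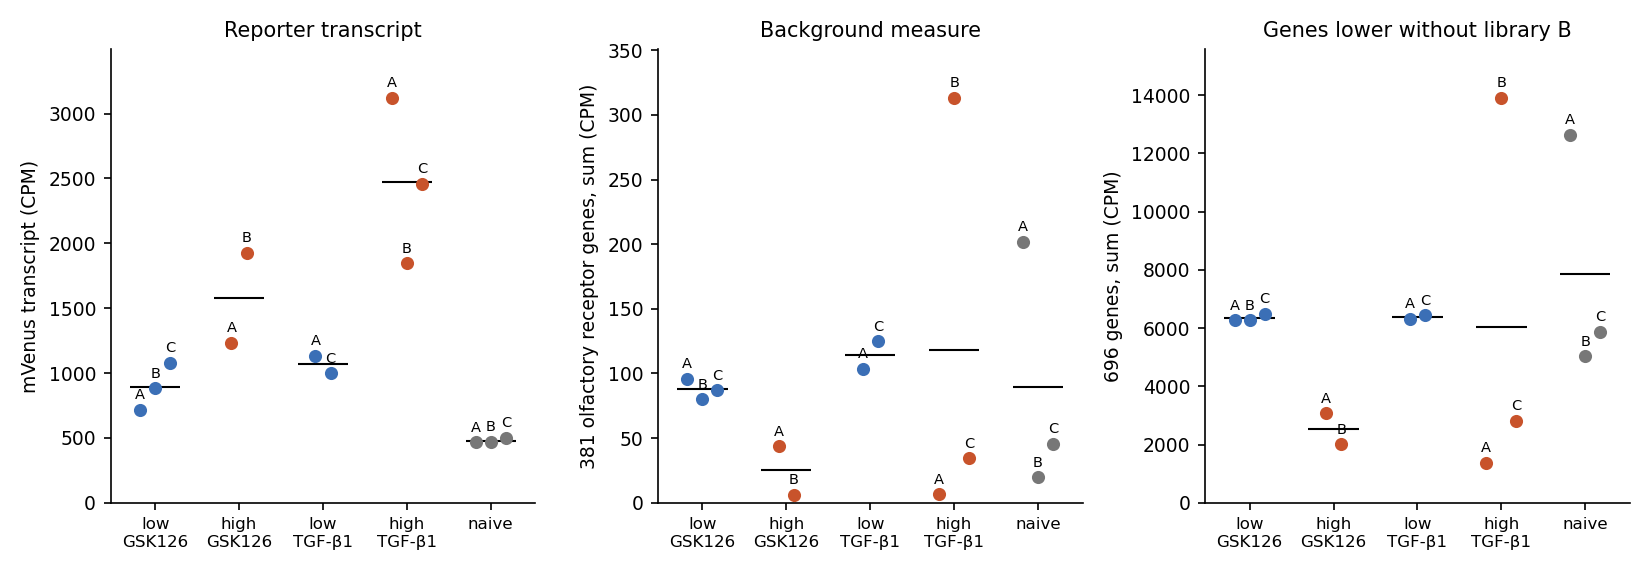
Each point is 1 A549 library with its letter, grouped by gate and treatment, bars are group means, and all axes are in CPM from 0. Left, the mVenus transcript is higher in each high gate; middle, the olfactory receptor sum is 313.2 CPM in high-TGF-β1 library B and 124.8 CPM or less in the other sorted libraries; right, the summed level of the 696 genes that were lower in the high gate without library B, which reaches 13910 CPM in that library.

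With all 10 libraries no gene passed the test. edgeR's quasi-likelihood test with treatment as a block called 0 of 17098 genes at a Benjamini-Hochberg adjusted p under 0.05 (0%), with 496 genes at an unadjusted p under 0.05, 371 of them higher and 125 lower in the high gate. mVenus, left out of these counts, did not pass this test either (edgeR adjusted p = 0.1894), although the gates were set on its fluorescence. The count of 0 therefore does not show that the gates were alike. Without high-TGF-β1 library B mVenus passed (edgeR adjusted p = 0.001646), but not with the background covariate added there (adjusted p = 0.3552). DESeq2 called 5 higher and 2 lower with all 10 libraries, among them ZNF185 higher and KCNJ6 and UGT2B4 lower. Without high-TGF-β1 library B the same edgeR test called 191 genes higher (1.28% of 14945) and 696 lower (4.66%). The 2 sets differed in level. The 191 higher genes were all protein-coding, with a median level of 84.34 CPM, and the 696 lower genes had a median of 3.895 CPM, 513 of them protein-coding. Library B and the naive libraries were not in the fit that called these genes. Library B was set aside because its background stood apart, and its removal changed the count most. Its levels therefore describe that library and are no independent test, and the gap between the gates in the other libraries follows from the calling. The lower set was at 13910 CPM in library B when summed, against 6278 to 6498 CPM in the low gate and 1370 to 3078 CPM in the other high-gate libraries. It was at 12650, 5030 and 5878 CPM in naive libraries A, B and C, whose olfactory receptor sums were 201.9, 19.96 and 45.74 CPM. Of the 696 lower genes, 676 were higher in library B than in either low-TGF-β1 library, against 7084 of all 14945 genes tested and 89 of the 191 higher genes. The higher set summed to 34540 CPM in library B, between the 2 low-TGF-β1 libraries (32950 and 34770 CPM) and below the other high-TGF-β1 libraries (47990 and 42040 CPM).

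When the olfactory receptor sum was added as a covariate without library B, 31 genes were higher (0.207%) and 0 lower (0%; edgeR), and only 2 of the 31 were among the 191. Those 31 comprised 12 histone genes, 6 ribosomal protein genes, 4 small nuclear or nucleolar RNAs and 9 others, LCE3D included. The highest background of the 4 high-gate libraries in that fit was 43.9 CPM and the lowest of the low gate 79.96 CPM, so gate and covariate nearly coincided there.

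**Figure D2:**
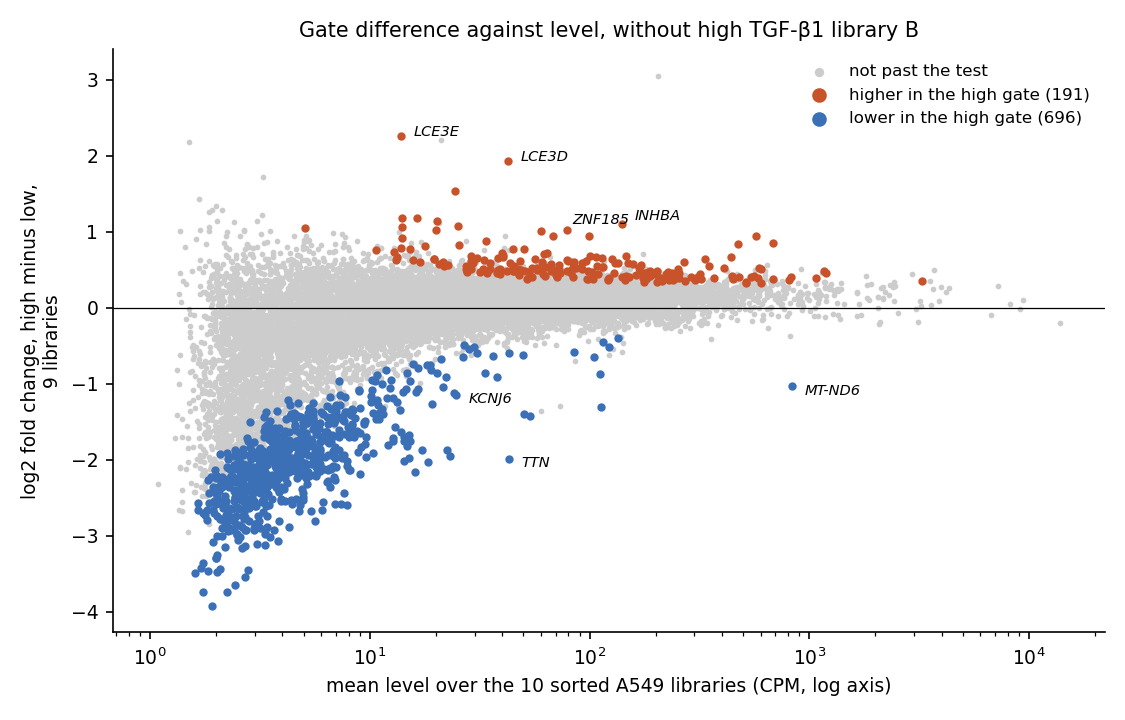
Each point is 1 gene: mean level over the 10 sorted A549 libraries in CPM on a log axis, against the log2 fold change of the high minus the low gate without high-TGF-β1 library B. The 191 genes past the test in the high direction (orange) spread over all levels above 5 CPM, whereas most of the 696 in the low direction (blue) sit at low levels, with a median of 3.895 CPM.

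Among the genes higher in the high gate, ZNF185 (GRCh38 chrX:152914442-152973480), a LIM-domain protein of the actin cytoskeleton, had one of the smallest p-values. It was at 91.36, 72.51 and 73.41 CPM in the low-GSK126 libraries and 131.3 and 125.5 CPM in the high ones, and at 74.23 and 55.69 CPM in the low-TGF-β1 libraries and 137.5, 115.7 and 119.9 CPM in the high ones. All 5 high libraries exceeded all 5 low libraries. Its log2 fold change was 0.90 ± 0.15 (SE; edgeR adjusted p = 0.115), and 0.94 without library B (adjusted p = 0.00165).

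ITGB4, an integrin subunit of epithelial cells, had 493.4, 523 and 477.6 CPM against 513.1 and 859.4 CPM under GSK126, low against high, and 298.6 and 171.8 CPM against 557.6, 439.8 and 402.1 CPM under TGF-β1. The gates overlapped under GSK126 and did not under TGF-β1. Its log2 fold change was 0.82 ± 0.20 (SE; edgeR adjusted p = 0.959), 0.84 without library B (adjusted p = 0.0174), and 0.11 without library B but with the background covariate.

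Because no gene passed, the naming rule took the 12 protein-coding genes of smallest unadjusted p in each direction, that averaged 5 CPM or more with gates that did not overlap within either treatment. Those higher in the high gate included ZNF185 and genes of epithelial function. CLDN2, a pore-forming claudin of tight junctions, was at 76.43 to 80.46 CPM in the low-GSK126 and 85.51 and 130.3 CPM in the high-GSK126 libraries, but at 3.907 to 8.424 CPM under TGF-β1, where low (3.907 and 5.616 CPM) and high (6.658, 8.424 and 7.33 CPM) were both far below the 135.8 to 139.4 CPM of naive cells. SPINT2, an epithelial inhibitor of serine proteases, was at 109.8 to 130.2 CPM in low and 142 and 145.1 CPM in high libraries under GSK126, and at 119.7 and 113.4 CPM against 235, 155.6 and 198 CPM under TGF-β1. JAG2, a Notch ligand, F3, the tissue factor that starts coagulation, SFN, the 14-3-3 sigma protein of epithelial cells, and FERMT1, an activator of integrins, had log2 fold changes of 0.92, 0.53, 0.59 and 0.58. Others were MGLL, TEDC1, MFSD12 and KLHL21, at 0.61, 0.62, 0.66 and 0.50. Over all genes, 73 of 17098 (0.427%) lay higher in the high gate without overlap in both treatments and 176 (1.03%) lower. Without library B all 12 passed edgeR's test, as genes chosen for small p in largely the same libraries. With the background covariate added none of the 12 passed, and the log2 fold change was 0.85 for ZNF185 (adjusted p = 0.0902), 0.49 for SPINT2, 0.22 for CLDN2, 0.23 for MGLL and 0.11 for MFSD12.

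A group of genes was at higher levels under TGF-β1 than under GSK126, with every high-TGF-β1 library above both low-TGF-β1 libraries. They were picked after their values were seen, so the tests quoted for them describe the choice, and none passed edgeR's gate test within TGF-β1 (lowest adjusted p = 0.124, LCE3D). LCE3D had 40.5 and 32.29 CPM in the low-TGF-β1 libraries and 128.8, 95.1 and 126.9 CPM in the high ones, and at most 0.2091 CPM in any GSK126 library. LCE3E had 12.5 and 7.8 CPM against 45.27, 29.04 and 43.87 CPM, and 0 counts in every GSK126 library. For both genes the 3 high libraries lay above both low libraries, library B included. The pooled log2 fold change was 1.68 ± 0.25 for LCE3D (SE; edgeR adjusted p = 0.081) and 1.97 ± 0.35 for LCE3E (adjusted p = 0.383), and without library B it was 1.93 (adjusted p = 1.54e-04) and 2.26 (adjusted p = 0.00216). The transcribed parts of these 2 paralogs were not compared here, so whether they share reads was not tested.

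INHBA, the subunit of activin A, went from 172.9 and 128.4 CPM in the low-TGF-β1 libraries to 422.4, 318.5 and 335.4 CPM in the high ones. BMF, a pro-apoptotic BH3-only protein, had 28.52 and 19.03 CPM against 89.54, 48.99 and 52.46 CPM, and KRT6A, a keratin of stressed epithelium, 55.34 and 71.76 CPM against 156.1, 120.6 and 156 CPM. The receptor tyrosine kinase RET (14.06 and 18.25 against 33.29, 35.02 and 37.59 CPM) and the ligand WNT7A (26.17 and 18.1 against 58.25, 50.1 and 44.08 CPM) had the same order. Under GSK126 none of these 5 genes exceeded 12.95 CPM. Without library B their pooled log2 fold changes were 1.10, 1.53, 1.02, 1.18 and 1.14, and with the background covariate added 0.73, 0.58, 1.27, 1.44 and 0.62, where none of the 5 passed (lowest edgeR adjusted p = 0.269, KRT6A). With all 10 libraries none passed either, and the test of the difference between the treatments did not pass for any of them (lowest edgeR adjusted p = 0.969). LCE3D and LCE3E did not pass it either. Under GSK126 LCE3D had at most 0.2091 CPM and LCE3E 0 counts, so the test cannot decide for them.

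**Figure D3:**
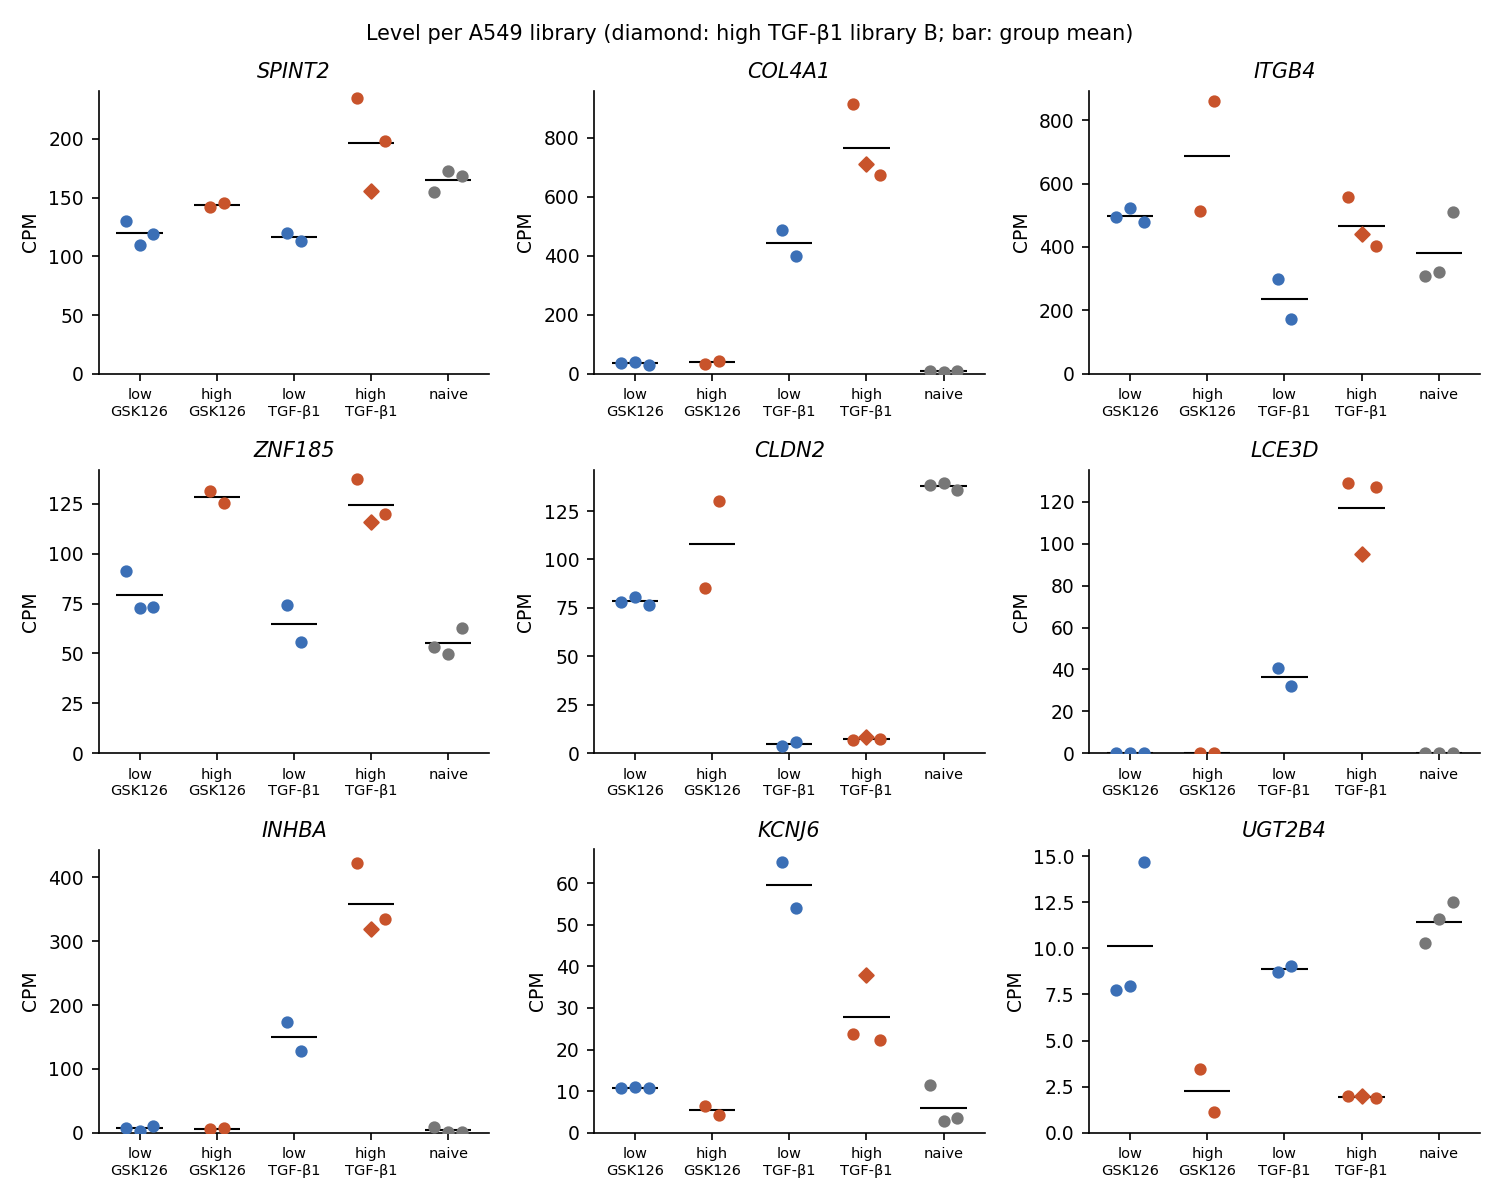
Level in CPM of 9 genes in each A549 library, grouped by gate and treatment; bars are group means and the diamond is high-TGF-β1 library B. SPINT2, ZNF185 and CLDN2 are higher and KCNJ6 and UGT2B4 lower in the high gate within both treatments, while LCE3D and INHBA are at 9.932 CPM or less under GSK126 and higher in the high gate under TGF-β1.

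Of the genes lower in the high gate, UGT2B4 and KCNJ6 had the smallest p-values. UGT2B4 (GRCh38 chr4:69480165-69526014) encodes a UDP-glucuronosyltransferase of bile acid and steroid conjugation. It was at 7.735, 7.947 and 14.68 CPM in the low-GSK126 libraries (37, 16 and 34 counts) and 3.436 and 1.141 CPM in the high ones (9 and 4 counts). Under TGF-β1 it was at 8.725 and 9.048 CPM in the low libraries (67 and 58 counts) and 1.997, 1.995 and 1.885 CPM in the high ones (6, 9 and 18 counts). All 5 low libraries lay above all 5 high libraries, and library B lay within its gate. The log2 fold change was -2.10 ± 0.37 (SE; edgeR adjusted p = 0.151) and -2.07 without library B (adjusted p = 0.00557). Naive cells had 10.29 to 12.5 CPM. Members of the UGT2B family are close in sequence, so reads of UGT2B4 may be split with its relatives.

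KCNJ6 (GRCh38 chr21:37607376-38121345), a G protein-gated inward rectifier potassium channel, was at 10.66, 10.93 and 10.8 CPM in the low-GSK126 and 6.49 and 4.277 CPM in the high-GSK126 libraries. Under TGF-β1 it was at 64.98 and 53.98 CPM in the low and 23.63, 37.91 and 22.2 CPM in the high gate, where library B was the highest. Its log2 fold change was -1.04 ± 0.16 (SE; edgeR adjusted p = 0.081), and -1.14 without library B (adjusted p = 0.00222). The 10 other genes that the rule named as lower had smaller differences, from -0.94 (PRICKLE2, a planar cell polarity protein) and -0.66 (TCIM) to -0.36 (PHF3), and 3 of them, TIPIN, SLC7A2 and PHF3, passed edgeR's test without library B.

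Some other genes called lower without library B are described here, picked after their values were seen. TTN, the giant sarcomere protein, was at 36.75 to 47.07 CPM in the low-GSK126 and 15.65 and 3.707 CPM in the high-GSK126 libraries, and at 45.19 and 55.07 CPM in the low-TGF-β1 and 4.993, 158.7 and 16.86 CPM in the high-TGF-β1 libraries A, B and C. DMD, RYR3 and MUC16 had 27.71, 52.54 and 46.33 CPM in library B, each above every other sorted library. The log2 fold change of TTN was -1.99 without library B (edgeR adjusted p = 0.00222), -0.72 ± 0.66 (SE) with it, and -0.37 without library B but with the background covariate. The mitochondrially encoded MT-ND6 was at 704.9, 824.5 and 710.8 CPM against 370.3 and 281.7 CPM under GSK126, and at 1289 and 1055 CPM against 307.2, 1996 and 782.3 CPM under TGF-β1, so that among the sorted libraries it too was highest in library B. The part of the background reads in these differences was not tested beyond these values.

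Few members of the lists of genes known in EMT and its pathways passed a test, and the lists were chosen with earlier results of these data known. Of 41 TGF-β target genes tested, 0 passed with all 10 libraries (edgeR), 8 had an unadjusted p under 0.05, all higher (496 of 17098 over all genes, either direction), and the median log2 fold change was 0.23, beside -0.01 over all genes. Without library B 8 of 41 were called higher (1.28% over all genes) and 0 lower, among them TGFBI, IL11, BAMBI, LTBP2, SPHK1 and TSPAN2, with a list median of 0.31 beside 0.04 over all genes, and -0.07 when the background covariate was added (all genes 0.05). For the next 4 lists, the calls without library B stand beside 1.28% higher and 4.66% lower over all genes. Of 37 mesenchymal genes tested there, FBN1 was called higher and DCN lower. Of 36 epithelial genes, CLDN2 and SPINT2 were called higher and ERBB3 and MARVELD3 lower. Of 30 matrix proteases and their inhibitors, 2 were called higher, among them PLAU, a serine protease, and ADAMTS4 was called lower. Of 31 collagens, the type IV chains COL4A1 and COL4A2 were called higher, with log2 fold changes of 0.64 and 0.67, and COL25A1 lower. With all 10 libraries the medians were 0.20 (39 mesenchymal genes tested), 0.11 (39 epithelial), 0.16 (33 proteases and inhibitors) and 0.04 (33 collagens). There COL4A1 was at 0.58 and COL4A2 at 0.65. Without library B but with the covariate, these 2 chains were at 0.15 and 0.11.

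Among 15 key genes of identity, 0 passed with all libraries (edgeR), 1 had an unadjusted p under 0.05, and DESeq2 called 1. Without library B 2 were called, TGFBI among them (over all genes 1.28% higher and 4.66% lower). TGFBI was at 1241 to 1456 CPM in the low-GSK126 and 1726 and 1926 CPM in the high-GSK126 libraries. Under TGF-β1 the gates overlapped, at 5306 and 5138 CPM in the low and 5489, 3835 and 5113 CPM in the high libraries. The log2 fold change of TGFBI without library B was 0.35. With the background covariate added it was 0.27 and did not pass (edgeR adjusted p = 0.667). CDH1, encoding E-cadherin, was at 5.613 to 7.108 CPM in the low-GSK126, 6.558 and 9.162 CPM in the high-GSK126, 2.808 and 3.386 CPM in the low-TGF-β1 and 0.3329, 11.31 and 1.257 CPM in the high-TGF-β1 libraries A, B and C, so that its log2 fold change of 0.41 ± 0.56 became -0.31 without library B. The mesenchymal cadherin CDH2 (0.02 ± 0.15), the intermediate filament VIM (0.22 ± 0.15), the matrix protein FN1 (0.10 ± 0.21) and the factors SNAI2 (0.05 ± 0.15) and ZEB1 (-0.12 ± 0.14) did not pass (SE; edgeR adjusted p of 0.959 or more). VIM was at 1380 to 1741 CPM in the low-GSK126, 1764 and 1841 CPM in the high-GSK126, 1950 and 1942 CPM in the low-TGF-β1 and 2283, 1641 and 2113 CPM in the high-TGF-β1 libraries. Both gates lay above the 913.6 to 974.4 CPM of naive cells. EZH2, the target of GSK126 (-0.25 ± 0.16), AXL (0.32 ± 0.18) and the proliferation marker MKI67 (0.18 ± 0.13) did not pass either.

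Markers of other cell types were examined next. For the 24 immune markers (8 tested), sums were 29.79 to 51.31 CPM in the low and 9.695 to 116.2 CPM in the high gate. For the 14 endothelial markers (8 tested), they were 37.25 to 47.14 and 21.39 to 91.33 CPM. PTPRC, encoding CD45, was at 11.97 CPM in library B and at most 4.836 CPM in the other sorted libraries. The medians of these lists went from -0.45 to -1.41 (immune) and from -0.60 to -1.93 (endothelial) when library B was left out, a larger move than in any other list with at least 5 tested genes. Fibroblast markers, 13 of them tested, summed to 110.2 to 404.2 CPM in the low gate and 99.26 to 572.1 CPM in the high gate, with a median log2 fold change of 0.00. Cytosolic ribosomal protein genes (median 0.11, 78 tested, 0 called with or without library B) and proliferation genes (0.09, 60 tested, with PLK1 called higher without library B) had medians above that of all genes (-0.01).

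**Figure D4:**
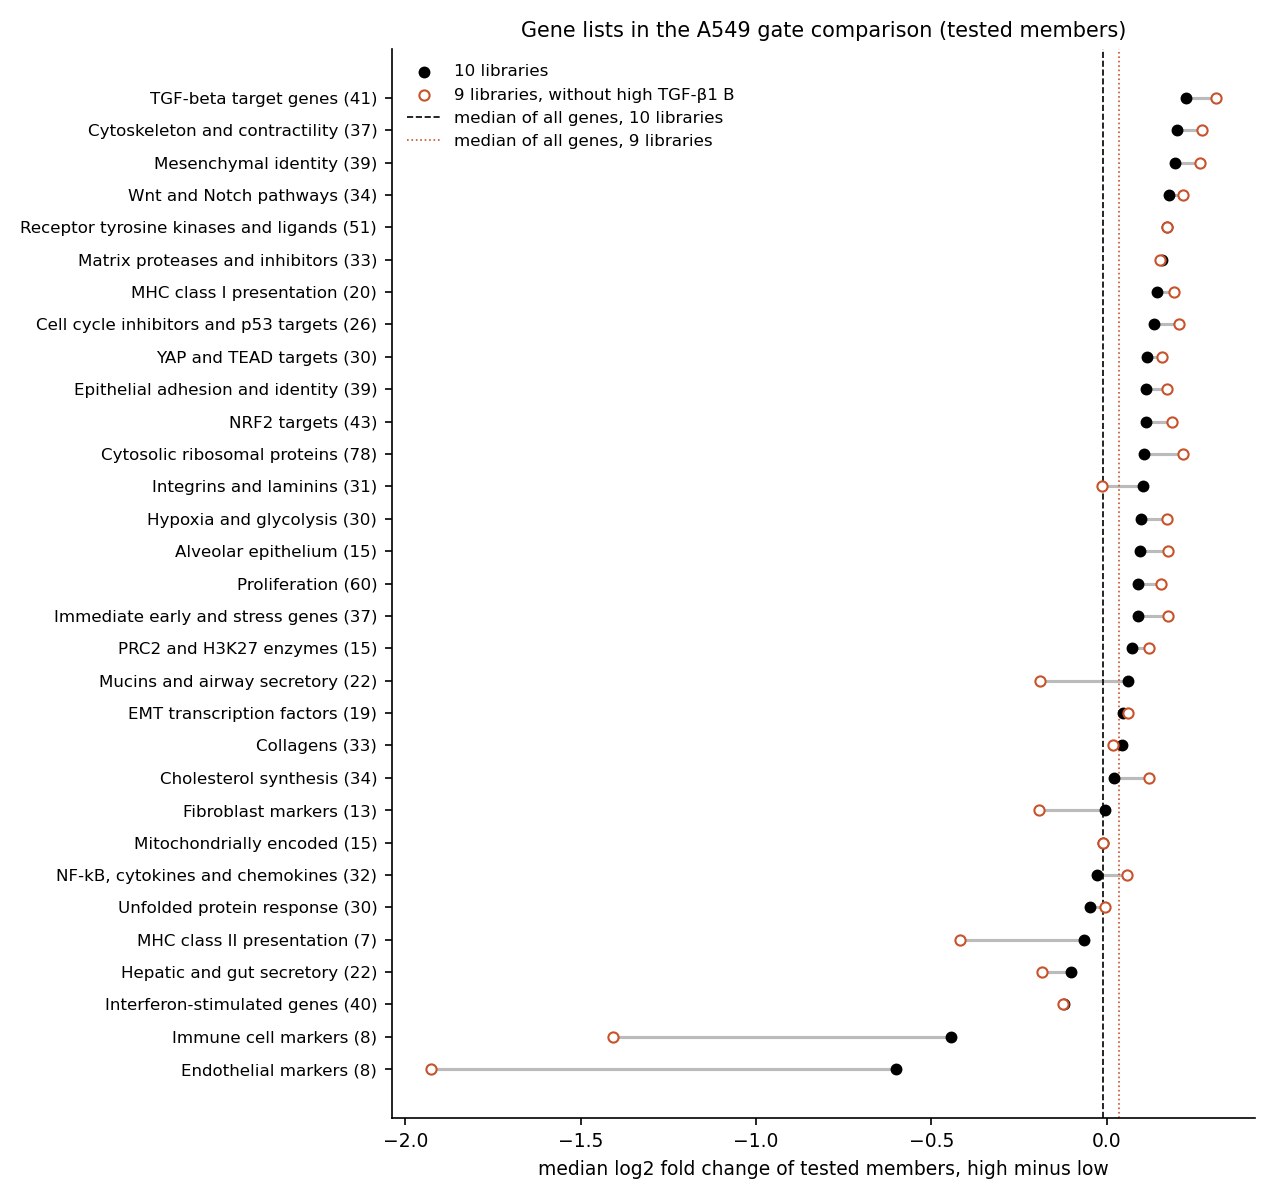
Median log2 fold change of the high minus the low gate over the tested members of each gene list (number tested in brackets), with all 10 libraries (black) and without high-TGF-β1 library B (open orange); vertical lines are the medians of all genes. TGF-β target genes have the highest median, at 0.23 and 0.31, and the immune and endothelial marker lists move farthest, to -1.41 and -1.93.

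Within single treatments edgeR called 0 genes under GSK126 (0%; 1100 at an unadjusted p under 0.05, and DESeq2 called 1) and 0 under TGF-β1 (0%; 276, and DESeq2 called 29). Without library B the counts were 0 and 80. The GSK126 count was 77 without high-GSK126 library A, which leaves 1 high library, assumed to vary like the other groups. The test of the difference between treatments called 1 gene of 17098 (0.00585%), DGKI, a diacylglycerol kinase. It was at 11.08, 9.437 and 10.36 CPM in the low-GSK126 and 2.672 and 1.996 CPM in the high-GSK126 libraries, and at 38.94 and 33.54 CPM in the low-TGF-β1 and 69.9, 72.49 and 60.31 CPM in the high-TGF-β1 libraries. Its log2 fold change was -2.01 ± 0.32 under GSK126 and 0.90 ± 0.18 under TGF-β1, a difference of 2.91 ± 0.37 (SE; edgeR adjusted p = 0.02). DGKI was at 16.38, 1.591 and 3.811 CPM in naive libraries A, B and C, in the order of their background sums. The count was 0 without low-GSK126 library A, low-GSK126 library C or high-GSK126 library B, 3 without high-TGF-β1 library B, and 29 without high-GSK126 library A. Without low-TGF-β1 library C the 1 gene called had a difference of the opposite sign, so it was not DGKI.

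High and low gates of H1944, another lung adenocarcinoma line with the same reporter, treatments and doses, were tested in 12 libraries. mVenus averaged 243 ± 35.84 CPM in its low and 858.6 ± 49.18 CPM in its high gate under GSK126. Under TGF-β1 it averaged 791.1 ± 34.26 and 2346 ± 82.45 CPM (SD, n = 3 each). In A549 the means were 893 and 1581 CPM under GSK126 and 1066 and 2476 CPM under TGF-β1. The mVenus gate difference, A549 minus H1944, was -0.567 ± 0.215 (log2, SE) and did not pass edgeR's test. The lines may thus not have been sorted equally, which the comparisons below did not adjust for. In H1944 edgeR called 175 of 13590 genes (1.29%), 105 higher and 70 lower, and the biological coefficient of variation was 0.108, against 0.288 in A549. Leaving out 1 H1944 library gave 31 to 196 genes, the lowest counts being 31 without high-GSK126 library A and 39 without low-GSK126 library B. Of the 100 H1944-higher genes tested in A549, 84 were also higher in A549 (median log2 fold change 0.26), and of the 67 H1944-lower genes 60 were lower (median -0.17), whereas 57.8% of all 13055 genes tested in both lines were higher in A549. Without library B, 17 of the 95 H1944-higher genes then tested were called higher in A549 (1.28% over all genes), among them TGFBI, IL11, COL4A1, COL4A2 and FSTL3, a secreted binder of activin. Of the 64 H1944-lower genes tested, 8 were called lower (4.66% over all genes), among them FGB, a fibrinogen chain, and 1, CPS1, was called higher.

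**Figure D5:**
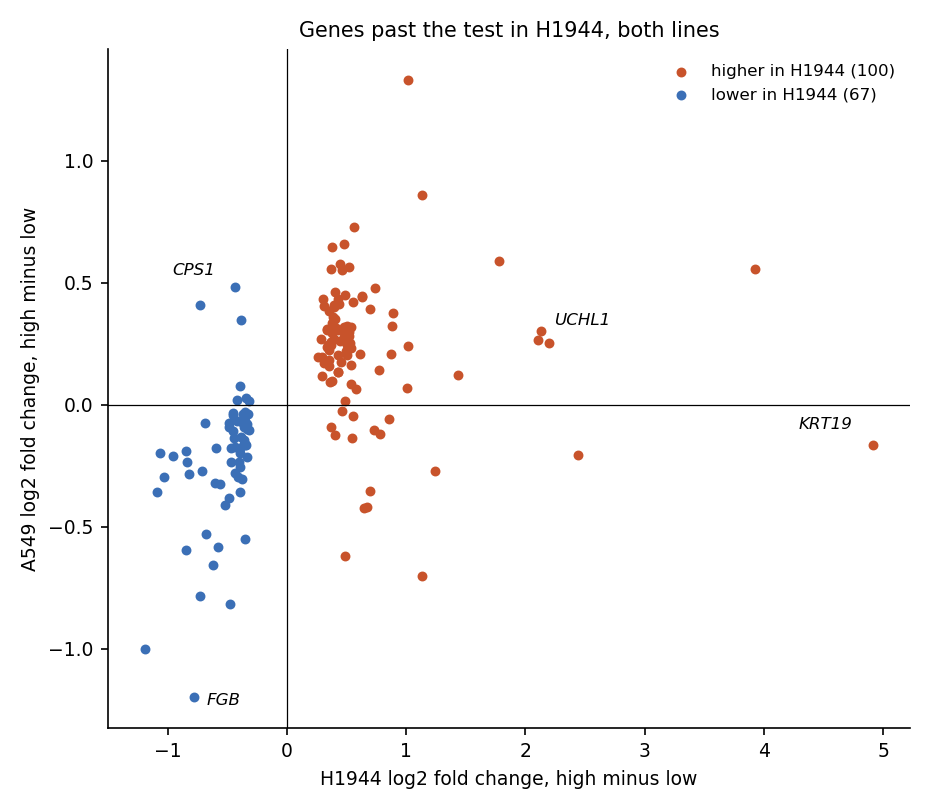
Log2 fold change of the high minus the low gate in H1944 (horizontal) and in A549 with all 10 libraries (vertical) for the genes that passed the test in H1944 and were tested in A549. Of the 100 genes higher in H1944, 84 lie above 0 in A549, and of the 67 lower genes 60 lie below 0, and the 16 and 7 others, KRT19 and CPS1 among them, have the opposite sign. The A549 value of KRT19 pools 0.43 under GSK126 and -0.95 under TGF-β1.

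The gate difference itself differed between the lines for 5 of 16928 genes (0.0295%; edgeR). UGT2B4, lower in the high gate of A549, was in H1944 at 84.53 ± 3.06 CPM in the low and 90.84 ± 18.6 CPM in the high gate under GSK126, and at 121.6 ± 12.07 and 142.8 ± 10.34 CPM under TGF-β1 (SD, n = 3 each). Its A549 minus H1944 difference was -2.27 ± 0.26 on the log2 scale (SE; edgeR adjusted p = 1.40e-05). CPS1, the mitochondrial enzyme that starts the urea cycle, was at 45.16, 63.57 and 76.86 CPM in the low and 75.97 and 86.11 CPM in the high gate of A549 under GSK126, and at 26.83 and 28.24 against 33.95, 40.12 and 34.24 CPM under TGF-β1. In H1944 it was lower in the high gate (2998 ± 137.1 against 2325 ± 142.5 CPM under GSK126 and 340.3 ± 34.77 against 241.1 ± 23.87 CPM under TGF-β1; SD, n = 3 each). CPS1 had a line difference of 0.92 ± 0.17 (SE; edgeR adjusted p = 0.0237). KRT19, an epithelial keratin, was at 401.4 to 498.7 CPM in the low and 470.3 and 639.9 CPM in the high A549 gate under GSK126, and at 26.57 and 24.18 against 15.98, 12.19 and 11.62 CPM under TGF-β1. In H1944 KRT19 was at 0.7507 ± 0.602 and 25.52 ± 1.388 CPM (SD, n = 3) under GSK126, low against high, and at 0 and 0.1309 CPM under TGF-β1. Its line difference, averaged over both treatments, was -5.09 ± 0.50 (SE, edgeR adjusted p = 7.36e-07). Under GSK126 alone the mean of KRT19 was higher in the high gate in both lines, with overlapping gates in A549. UCHL1, a deubiquitinating enzyme, was at 5.838 ± 1.192 and 31.97 ± 4.274 CPM in H1944 under GSK126, low against high (SD, n = 3), and at 1.131 ± 0.4889 and 1.23 ± 0.6745 CPM under TGF-β1. In A549 it was at 348.2 to 413.1 CPM under GSK126 and 287.8 to 455.4 CPM under TGF-β1. Its line difference, averaged over both treatments, was -1.86. The pseudogene HDGFP1 completed the 5 with -3.53 (edgeR adjusted p = 0.0498), and reads may be shared with its parent gene. In H1944 it was near the floor, with means of 0.1649 and 2.791 CPM under GSK126, low against high, and 0 and 0.1309 CPM under TGF-β1. It was not tested in the H1944 fit, and in A549 its log2 fold change was 0.05 ± 0.18 (SE). Leaving out 1 library gave 2 to 5 genes, except 88 without high-TGF-β1 library B.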

How the data were processed

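RNA was sequenced from sorted and naive cells with a stranded total RNA kit from 10 ng of RNA, per the labels' protocols. The authors deposited raw read counts per gene for 28 libraries (60483 Ensembl rows and 4 reporter rows). The submitters' processing notes name bcl2fastq 2.20.0, STAR 2.6.0c, HTSeq 0.12.3 and genome build GRCh38. Their settings, strand mode and treatment of reads shared by gene copies are not given in the sources used here. No molecular identifiers are named, so counts can hold PCR copies.

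Groups were taken from the labels. Counts were tested with edgeR 4.0.16 (R 4.3.3): trimmed-mean normalization, filterByExpr, a quasi-likelihood test with treatment and gate as terms, and Benjamini-Hochberg adjustment over all tested genes, called at 0.05. In the A549 test there were 7 residual degrees of freedom. The difference between treatments was tested in the 4 sorted A549 groups, H1944 in its own fit, and the difference between lines in 1 fit of both. DESeq2 1.42.0 and limma 3.58.1 gave alternatives. mVenus stayed in the fit and out of the counts of genes, and its level was compared as log2(CPM + 0.5). CPM are counts scaled to the library total without normalization factors.

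Background reads were measured on 381 of 383 olfactory receptor genes, leaving out 2 with a group mean above 5 CPM. Gene symbols were found for 56753 rows in the annotation used here, and 1100 of 1102 entries of 33 gene lists matched. Named genes were the 12 highest and 12 lowest past the test or, as here where none passed, the 12 of smallest p per direction among protein-coding genes that averaged 5 CPM or more with no overlap within a treatment. To these came the 2 of smallest p of each list with 5 or more tested genes, the protein-coding genes past the tests between treatments and lines, and 15 key genes. HDGFP1 and the genes said to be picked afterwards fall outside that rule, as do TTN, DMD, RYR3, MUC16 and list members named only as called. The members and lists were chosen with earlier results of these data known. The pooled test was run on simulated counts that held no treatment effect, background reads or outlier library. That check therefore does not cover these features of the data. The alternatives were other size factors, filters, tools, a background covariate, mVenus in place of the gate, other sets of libraries, the letters as blocks, and each library left out in turn; 2 were added after seeing the data, both without high-TGF-β1 library B, with coding genes of at least 5 CPM or with the background covariate. Values of 2 genes that the rule named or the lists hold are not reported here.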

Additional observations from a re-analysis of the deposited data

Results flagged for a closer look

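Among the 5 high-gate A549 libraries, high-TGF-β1 library B stood apart in its olfactory receptor background, at 313.2 CPM against 6.273 to 43.9 CPM in the other 4. High-TGF-β1 library C stood apart in depth, with a total count of 9550143. Chance flags about 1 in 20 such groups.

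The gate difference differed between treatments in A549 for DGKI, by 2.91 on the log2 scale (TGF-β1 minus GSK126). Averaged over both treatments, it differed between the lines, A549 minus H1944, for UGT2B4 by -2.27, CPS1 by 0.919, KRT19 by -5.09, UCHL1 by -1.86 and HDGFP1 by -3.53. Each passed edgeR's test of the difference itself at an adjusted p under 0.05.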

How the results depend on the processing

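The cause of each change below was not tested. The pooled A549 test called 0 genes, and with other settings 1 (other size factors), 11 (no filter), 7 (DESeq2), 1492 (limma-voom with sample weights), 5 (all 28 libraries), 2 (coding genes of at least 5 CPM), 2 (background covariate) and 11 (log2 mVenus in place of the gate); leaving out 1 library gave 0 to 887, the latter without high-TGF-β1 library B. Without that library, 80 were called among coding genes of at least 5 CPM and 31 with the background covariate, both chosen after seeing the data. Under GSK126 the count went from 0 to 30 (no filter), 1 (DESeq2), 18 (GSK126 libraries alone) and 0 to 77 (1 library left out); under TGF-β1 to 4, 29, 898 (voom weights) and 0 to 80; between treatments from 1 to 6, 8, 4 and 0 to 29. In H1944 it went from 175 to 112 (at least 1 CPM), 314 (DESeq2) and 31 to 196, and between lines from 5 to 11 (no filter), 29 (voom weights) and 2 to 88. With the letter as a replicate block the counts were 2121 (pooled), 155 (GSK126), 965 (TGF-β1), 45 (between treatments), 269 (H1944) and 99 (between lines). High-TGF-β1 library B and low-GSK126 library C are each alone in their A549 block, so they add nothing to the gate differences there. With both removed, the 4 complete pairs gave a pooled count of 1538. Where leaving out 1 library left 1 in an arm, that library is assumed to vary like the other groups. Same-letter libraries deviated together with correlations of 0.155, 0.0633, 0.0421 and 0.196 over the 4 pairs, and the labels do not say that a letter marks a shared culture. Of 2214 gene values under alternatives, 1921 kept direction and side of the threshold, 228 newly passed and 65 changed sign; 20 of 743 list medians moved.

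Changes of sign, in log2 fold change, were as follows. With the background covariate and 10 libraries: FOXC1 -6.17e-04, SREBF1 -0.0719, RPS10 -0.152, EGFL7 -0.168, HDGFP1 -0.177, KRT18 -0.141, CDH2 -0.155, VIM -0.0462, FN1 -0.329, SNAI2 -0.173, ZEB1 0.026 and TGFBI -0.0704. With the covariate and without library B: PRICKLE2 0.166, FOXC1 -0.262, TAPBP -0.0632, CIITA -0.595, CD74 -0.499, NFKB2 -0.18, KLF2 -0.0647, HK1 -0.0457, SREBF1 -0.392, EZH2 0.301, KDM6B -0.528, COL1A1 -0.305, EMCN 1.8, ACTN4 -0.019, HDGFP1 -0.477, KRT18 -0.0989, FN1 -0.505, SNAI2 -0.234 and ZEB1 0.253. With voom weights: CIITA -0.136, CD74 -0.183, HDGFP1 -0.117 and CDH1 -0.206. With the replicate block: CIITA -0.11, CD74 -0.217, KRT19 0.00951, HDGFP1 -0.0235 and CDH1 -0.372, and in the 4 pairs CIITA -0.141, CD74 -0.243, HDGFP1 -0.0439 and CDH1 -0.405. With log2 mVenus: CD74 -0.057 and CDH1 -0.263. In coding genes of at least 5 CPM CDH2 had -0.0286. For DGKI the pooled value was -0.286 with DESeq2, -0.549 with naive cells in the fit and -0.495 with all 28 libraries. With 1 library left out in turn the values ran from -0.0875 to 0.767 for CIITA, -0.167 to 0.655 for CD74 and -0.307 to 0.645 for CDH1 (lowest without library B), -0.158 to 0.00564 for MT-ND2, -0.41 to 0.399 for DGKI, -0.127 to 0.189 for HDGFP1, -0.0682 to 0.0996 for CDH2, -0.0278 to 0.29 for FN1 and -0.0392 to 0.158 for SNAI2. Total counts limit genes of low level most: UGT2B4 rests on 4 to 67 counts per library.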
